A study of Mus musculus with 67 samples.

Results

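Sall1, Spi1, Irf8, Mef2a, Mef2c, Runx1, Irf5, Pou2f2 and Cbfa2t3 are transcriptional regulators that are used to describe the identity of microglia, the resident macrophages of the brain. The 9 genes were chosen by name, by matching the gene symbol in each of the 3 deposited count tables, and all 9 were found among the 24411 genes listed in the driver and digest tables and the 24421 genes listed in the LPS table. All 9 passed the filter on low counts in each experiment, where 11868, 11529 and 11444 genes were tested. Mouse brain RNA had been sequenced in 67 libraries to set ribosome-bound RNA pulled out of whole brain beside RNA of sorted microglia.

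Every mouse was of the C57BL/6J strain and carried the RiboTag allele, spelled RLP22HA/HA in the labels, in which Cre recombinase adds an HA tag to a ribosomal protein, together with a Cre driven from the Cx3cr1 locus. The driver experiment compared CX3CR1CreER/WT mice with tamoxifen (called CreER with tamoxifen here), CX3CR1CreER/WT mice without tamoxifen and CX3CR1Cre/WT mice without tamoxifen (the constitutive driver). With 3, 2 and 3 libraries in turn, each of these groups was measured in an anti-HA pull-down, a pull-down with an isotype IgG and a total extract, called input. The digest experiment, on CreER mice with tamoxifen, held 3 pull-down libraries, 4 IgG libraries, 4 libraries of cells sorted after an enzymatic digest and 4 of cells sorted without it. The LPS experiment, also on CreER mice with tamoxifen, compared PBS with 2.5 mg/kg lipopolysaccharide (LPS) injected 3 h earlier, with 3 PBS and 4 LPS libraries for each of IgG, pull-down, sorted cells and sorted cells followed by an anti-HA pull-down (called sorted pull-down). Tamoxifen was given by gavage as 4 doses of 5 mg at 4 to 6 weeks of age, and the sort took GR1 negative, CD45 intermediate and CD11b positive cells. The Cx3cr1 locus is active in other macrophages of the brain as well as in microglia, so the tag is not a label of microglia alone, and the labels do not give the age at sampling.

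Spi1 encodes PU.1, the ETS factor that myeloid cells depend on, and Irf8 and Runx1 act beside it in the development of microglia from yolk sac progenitors. Sall1 is a zinc finger factor that, among macrophages, marks microglia, while Mef2a and Mef2c are MADS box factors whose binding motif is common at microglial enhancers and which neurons also express. LPS activates the Toll-like receptor TLR4 and within hours replaces much of the resting programme of a macrophage with inflammatory transcription.

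Promoter sequence was available for 8 of the 9 genes, as 15 windows of 300 bases (250 before to 50 from the start site) from RefSeq on build GRCm38.p6. The windows were searched on both strands for 6 motifs: PU.1 as GAGGAAGT, RUNX as AACCACA, MEF2 as CTA, any 4 bases and TAG, the interferon-stimulated response element as GAAA, any 2 bases and GAAA, the octamer of POU2F factors as ATGCAAAT and AP-1 as TGACTCA. Of the 15 windows, 4 held a match to any of the 6 motifs, and no match overlapped another. The share of all windows with any of the 6 was not counted, so the 4 of 15 has no background here. Shares are given for single motifs only. The share of all 32851 windows with a match was 3.2% for PU.1, 5.27% for RUNX and 3.69% for MEF2, and 3.44%, 1.74% and 5.2% for the other three. The stretches with a match are shown with the match in capitals, and a match describes letters alone. The Mef2a match lay across the start site, while those of Pou2f2 and Cbfa2t3 began at -91 and -237 from it. Runx1 and Cbfa2t3 each had another window, at another start site, without a match.
Runx1, chr16:92826026-92826055, minus strand, 20 to 49 bases after the start site, 2 RUNX matches: tcataaacAACCACAgAACCACAagttggg
Pou2f2, chr7:25132534-25132563, minus strand, 103 to 74 bases before the start site, 1 RUNX match read on the other strand: gcggaccggcccTGTGGTTtcctcccgggg
Mef2a, chr7:67372841-67372870, minus strand, across the start site, 1 MEF2 match: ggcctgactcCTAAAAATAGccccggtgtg
Cbfa2t3, chr8:122699110-122699359, minus strand, the 250 bases before the start site, 1 PU.1 match: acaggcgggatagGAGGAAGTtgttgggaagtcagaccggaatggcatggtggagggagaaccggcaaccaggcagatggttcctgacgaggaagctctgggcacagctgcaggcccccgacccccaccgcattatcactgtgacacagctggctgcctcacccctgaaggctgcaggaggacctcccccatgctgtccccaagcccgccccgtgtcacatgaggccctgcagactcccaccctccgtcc

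Levels are given as CPM, counts relative to library size after TMM scaling (trimmed mean of M values), which is not corrected for gene length, so levels are compared between libraries and never between genes. Each log2 fold change is followed by its standard error after ±, and the adjusted p is from edgeR's quasi-likelihood test with Benjamini-Hochberg adjustment over all genes tested, with a gene called at an adjusted p under 0.05. Library totals ran from 166851 to 3513317 counts. The microglia markers (10 of 10 with reads in every group) summed to 42207 to 52394 CPM in the pull-down of CreER mice with tamoxifen, 32179 to 35289.6 in that of the digest experiment, 33989.8 to 38289 in PBS pull-down and 37440.1 to 39710.1 and 37879 to 39892 in the sorted cells with and without digest. The defining markers of the labelled cells were thus present in those groups. In the constitutive driver the same sum was 1626 to 3886 CPM in pull-down against 502 to 647 in input, while neuron markers (8 of 8 with reads) summed to 5298 to 7023 CPM in pull-down and 5216 to 5485 CPM in input. In bulk RNA, fewer cells of a type and less RNA per cell cannot be told apart.

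The first question was which of the factors come down with tagged ribosomes when CreER mice had tamoxifen. Over input, 7 of the 9 genes stood higher in pull-down and none lower, where 28.7% of all genes tested were called higher. The members divided into 6 genes at 14.3-fold or more, Cbfa2t3 at 2.55-fold, and the MEF2 pair, which were not called.

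Spi1 measured 499.6, 462 and 372 CPM in the 3 pull-down libraries, 20.3, 5.65 and 8.03 CPM with IgG and 4.91, 5.22 and 4.46 CPM in input. Irf8, which pairs with PU.1 at composite motifs, measured 689.6, 832 and 638 CPM in pull-down, 10.5, 10.5 and 14.1 CPM with IgG and 7.71, 13.4 and 8.48 CPM in input. Irf5, an interferon regulatory factor downstream of Toll-like receptors, measured 359.6, 399.8 and 304 CPM in pull-down, 0.751, 6.46 and 3.01 CPM with IgG and 2.80, 4.47 and 8.03 CPM in input. For these 3 factors every pull-down library stood above every IgG and input library. Their log2 fold changes over input were 6.50 ± 0.38 (adjusted p = 9.97e-16), 6.20 ± 0.26 (adjusted p = 5.88e-21) and 5.99 ± 0.37 (adjusted p = 2.03e-15), in that order.

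Runx1, a runt domain factor, measured 119, 104 and 67.4 CPM in pull-down, 4.50, 4.04 and 3.01 CPM with IgG and 0.701, 2.24 and 0.446 CPM in input, where the 3 input libraries held 5 reads in all. Sall1 measured 195, 247 and 178 CPM in pull-down, 9.01, 10.5 and 10.0 CPM with IgG and 16.1, 14.2 and 12.9 CPM in input. Pou2f2, the octamer-binding factor OCT2 best known from B cells, measured 527, 619.8 and 398 CPM in pull-down, 24.8, 31.5 and 38.1 CPM with IgG and 11.2, 17.1 and 20.1 CPM in input. The groups did not overlap for any of the 3. The log2 fold changes over input were 6.44 ± 0.47 (adjusted p = 1.44e-14) for Runx1, 3.84 ± 0.25 (adjusted p = 8.34e-16) for Sall1 and 4.96 ± 0.24 (adjusted p = 2.97e-19) for Pou2f2.

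The other 3 genes behaved unlike these 6. Cbfa2t3, a corepressor of the ETO family, measured 150.3, 159 and 180.4 CPM in pull-down, 149, 128 and 159.6 CPM with IgG and 61.7, 54.4 and 75.0 CPM in input. Its pull-down libraries lay above input, at 1.35 ± 0.22 (adjusted p = 1.57e-06), but overlapped IgG, at 0.17 ± 0.21 (adjusted p = 0.488). Mef2c measured 86.0, 81.8 and 71.7 CPM in pull-down, 272, 346 and 312 CPM with IgG and 67.3, 73.8 and 118 CPM in input. Mef2c pull-down thus overlapped input, at -0.13 ± 0.21 (adjusted p = 0.6), and lay below every IgG library, at -1.96 ± 0.21 (adjusted p = 3.07e-10). Mef2a measured 91.2, 143 and 95.7 CPM in pull-down, 57.8, 79.9 and 57.2 CPM with IgG and 28.7, 65.6 and 117 CPM in input. The input and pull-down values of Mef2a overlapped, and the difference was not called, at 0.60 ± 0.33 (adjusted p = 0.108). Without input replicate 3, the highest of them, that difference was 1.31 (adjusted p = 0.000195). Against IgG, Mef2a pull-down did not overlap, and the test missed the threshold at 0.75 ± 0.33 (adjusted p = 0.0534). Of 12 alternatives 7 called it, among them only the compared groups at 0.70 (adjusted p = 0.00255), DESeq2 at 0.83 (adjusted p = 0.0306) and RLE size factors at 0.82 (adjusted p = 0.0345).

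Against IgG, 6 of the 9 genes were higher in pull-down and Mef2c was lower, where 30.8% of genes were called higher and 35.3% lower. The 6 were Irf5 at 6.67 ± 0.41, Irf8 at 5.95 ± 0.26, Spi1 at 5.24 ± 0.35, Runx1 at 4.59 ± 0.41, Sall1 at 4.38 ± 0.28 and Pou2f2 at 4.04 ± 0.23. Both comparisons use the same pull-down libraries. The IgG background itself differed from input, with 5 of 9 genes higher at a background of 16.6% called higher. Mef2c was 1.83 ± 0.20 and Cbfa2t3 1.18 ± 0.21 above input in IgG, against 0.92 ± 0.26 for Pou2f2, 1.85 ± 0.72 for Runx1 and 1.26 ± 0.48 for Spi1. The calls for Runx1 (14 against 5 reads) and Spi1 (42 against 24 reads) were lost when 1 library was left out, for Spi1 down to 0.48 (adjusted p = 0.551) without IgG replicate 1, the highest of the IgG libraries. The labels state a larger amount of anti-HA antibody than of IgG, so the background was not matched in that respect.

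**Figure D1:**
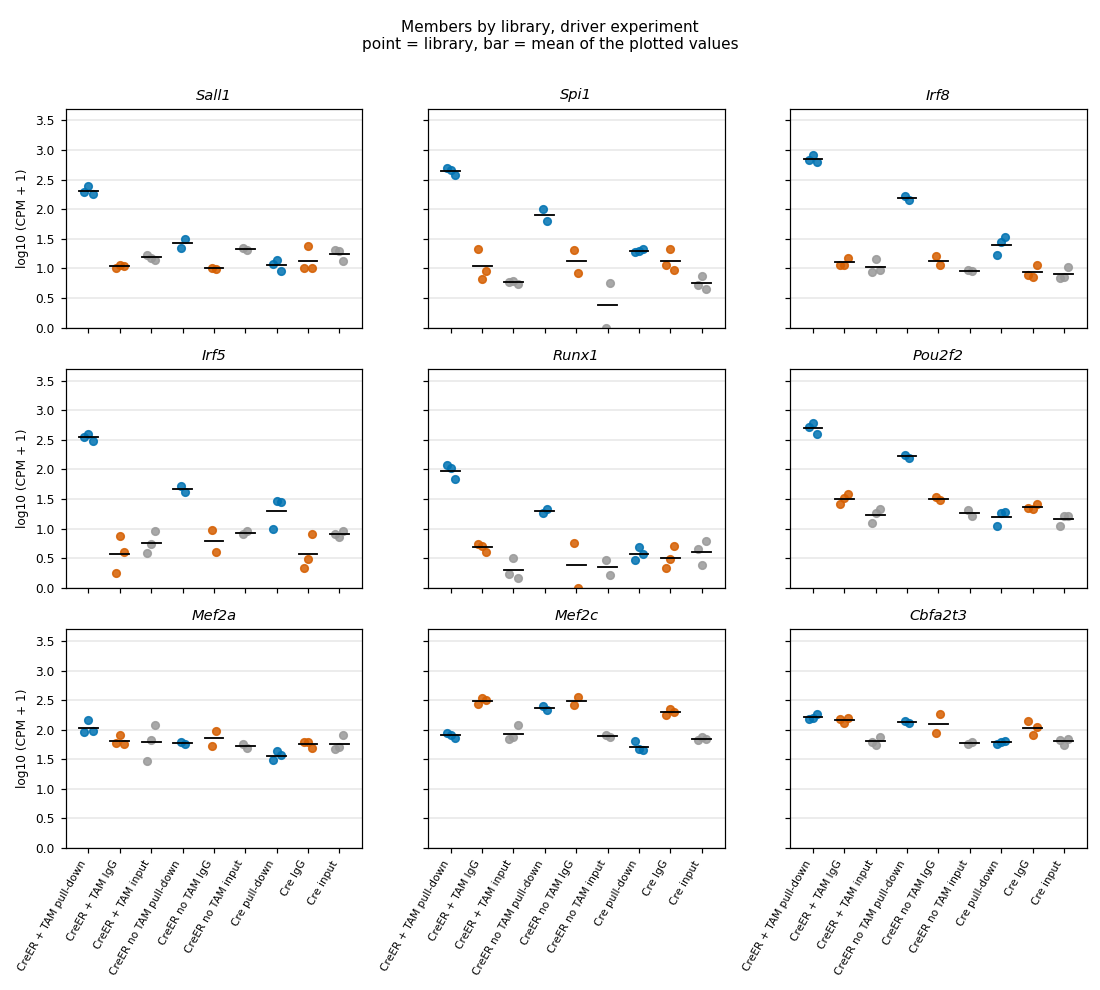
Each panel plots log10 (CPM + 1) of 1 gene in every library of the driver experiment, grouped on the x axis by mouse and preparation (blue pull-down, orange IgG, grey input), with a black bar at the mean of the plotted values. Spi1, Irf8, Irf5, Runx1, Pou2f2 and Sall1 are high in the 3 pull-down libraries of CreER mice with tamoxifen and low in the constitutive driver, while Mef2c is highest with IgG.

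The constitutive driver gave another picture. All 9 genes were lower in its pull-down than in that of CreER mice with tamoxifen, where 25.6% of genes were called lower. Pou2f2 measured 10.1, 17.5 and 17.8 CPM in the constitutive pull-down, and the log2 difference was -5.10 ± 0.25 (adjusted p = 1.48e-18). Runx1 measured 1.89, 3.98 and 2.68 CPM, at -5.06 ± 0.42 (adjusted p = 7.57e-13), and Sall1 10.7, 12.7 and 8.03 CPM, at -4.27 ± 0.27 (adjusted p = 6.67e-16). Irf8 measured 15.8, 27.1 and 33.0 CPM, at -4.85 ± 0.24 (adjusted p = 1.34e-18). For all 9 genes the 3 libraries of the constitutive driver lay below the 3 of CreER mice with tamoxifen. Both directions counted, the groups did not overlap for 63.6% of all genes, and the share lying below was not counted. The smallest differences were those of Mef2c, at -0.63 ± 0.22 (adjusted p = 0.0157), and Cbfa2t3, at -1.43 ± 0.22 (adjusted p = 9.06e-07), and the Mef2c call was lost under total-count scaling, at -0.43 (adjusted p = 0.106), and without any 1 of 3 libraries, 2 of the constitutive driver and 1 of CreER mice.

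Within the constitutive driver, pull-down exceeded input for 3 of 9 genes, at a background of 18.1% called higher. These were Spi1, with 17.7, 18.3 and 20.5 CPM in pull-down and 4.19, 6.57 and 3.42 CPM in input (1.93 ± 0.43), Irf8, with 5.98, 6.10 and 9.68 CPM in input (1.76 ± 0.29), and Irf5, with 8.84, 28.7 and 26.8 and 7.17, 6.10 and 7.97 CPM (1.55 ± 0.40). Against IgG, Irf8 at 1.60 ± 0.35 and Irf5 at 2.41 ± 0.55 were higher and Mef2c at -1.94 ± 0.21 and Cbfa2t3 at -0.89 ± 0.23 lower, at backgrounds of 20.5% and 18.3%. Spi1 was not called against IgG, and its pull-down libraries lay within the range of its IgG libraries, 8.23 to 20.7 CPM. Sall1, Runx1 and Pou2f2 overlapped input and were called in neither direction, at -0.65 ± 0.30, -0.22 ± 0.60 and 0.12 ± 0.29. The test of the difference between the drivers in pull-down over input called 8 of 9 genes lower, all but Mef2c at -0.30 ± 0.30 (adjusted p = 0.438), at a background of 19.7% called lower. The Mef2a term was -1.30 ± 0.47 (adjusted p = 0.0289), and its call was lost under total-count scaling at -1.08 (adjusted p = 0.0687).

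Of the constitutive pull-down libraries, replicate 1 stood apart: its oligodendrocyte markers (6 of 6 with reads) summed to 5522 CPM against 1682 and 1792 in the others, and its microglia markers to 1626 CPM against 3619 and 3886. Without it, 9 of 9 genes were still lower than in CreER pull-down, 3 were called higher and 1 lower against input, the last being Mef2c at -0.63 (adjusted p = 0.0389), and 7 were called in the test between drivers. The part of the other cell types' RNA in these differences was not tested. Between the inputs of the drivers edgeR called 0 of 9 members and 0% of all genes, DESeq2 also called none, and 1 member (Runx1, 1.60 ± 0.69) and 507 of 11868 genes had an unadjusted p under 0.05. The difference in Irf8, for example, was -0.42 ± 0.32 in input beside -4.85 ± 0.24 in pull-down.

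CreER mice without tamoxifen were included as a further control of the pull-down, and their 2 pull-down libraries were shallow, at 186099 to 219521 counts. Of the members, 7 of 9 genes were higher there than in input, at a background of 6.44% called higher. Irf8 measured 168 and 144 CPM in pull-down and 8.40 and 7.97 CPM in input (4.24 ± 0.36, adjusted p = 4.5e-11). Spi1 measured 99.1 and 61.6 CPM and 0 and 4.65 CPM (5.08 ± 0.64, adjusted p = 8.61e-07), with no read in 1 input library. Pou2f2 measured 177 and 154 CPM and 19.4 and 15.3 CPM (3.25 ± 0.33, adjusted p = 2.73e-09). These groups did not overlap. Runx1 at 3.74 ± 0.91, Irf5 at 2.62 ± 0.61, Mef2c at 1.59 ± 0.27 and Cbfa2t3 at 1.18 ± 0.31 were also called, whereas Sall1, with 21.5 and 30.8 CPM in pull-down and 21.3 and 19.3 CPM in input, was not (0.35 ± 0.48, adjusted p = 0.72). The 2 pull-down libraries held 11 reads of Sall1 and 8 of Runx1 in all, and the 2 input libraries 62 and 4. Without pull-down replicate 1, 4 of the 7 calls against input were left.

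Against IgG, 5 of 9 genes were higher without tamoxifen (5.01% of genes), namely Irf8 at 3.58 ± 0.36, Irf5 at 2.90 ± 0.68, Runx1 at 2.70 ± 0.88, Spi1 at 2.48 ± 0.53 and Pou2f2 at 2.40 ± 0.33, and 2 were left without pull-down replicate 1. Mef2c and Cbfa2t3, called over input, were not called over IgG. Mef2c pull-down, at 211 to 254 CPM, lay below every IgG library, at 258 to 360 CPM. Cbfa2t3 pull-down, at 128 to 138 CPM, overlapped its IgG, at 86.6 to 181 CPM. Compared with tamoxifen, pull-down without it was lower for 6 of 9 genes and higher for Mef2c, at backgrounds of 18.3% called lower and 16.4% higher. Sall1 differed by -2.99 ± 0.38, Irf5 by -2.92 ± 0.43, Spi1 by -2.45 ± 0.39, Runx1 by -2.36 ± 0.53, Irf8 by -2.20 ± 0.26 and Pou2f2 by -1.63 ± 0.26. Mef2c, at 254 and 211 CPM, was 1.55 ± 0.26 above the pull-down with tamoxifen and overlapped none of it. Microglia markers summed to 7613 to 8886 CPM without tamoxifen. Markers of other cell types moved with the same comparison. Neuron markers (8 of 8 with reads in both) summed to 4871 to 5415 CPM without and 1389.8 to 1786 CPM with tamoxifen, and oligodendrocyte markers (6 of 6 in both) to 4539.8 to 4927 and 1923 to 2177 CPM. Astrocyte markers (6 of 6 in both) summed to 1154 to 1366 and 440.5 to 482 CPM. Border macrophage markers summed to 87.3 to 121 CPM without tamoxifen (7 of 8 with reads, Folr2 at 0) and 862 to 1066 CPM with it (8 of 8). Their part in these differences was not tested.

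The digest experiment set sorted cells, with and without the enzymatic digest, beside pull-down for the same genes. Its sorted libraries hold RNA of cells and its pull-down libraries ribosome-bound RNA. With no sorted pull-down there, sorting and the kind of RNA cannot be told apart. Pull-down against IgG called 7 of 9 genes higher and Mef2c lower, where 26.7% were called higher and 47.8% lower. Here Mef2a was among the higher, with 113, 120.1 and 98.3 CPM in pull-down and 71.7, 58.4, 60.1 and 54.6 CPM with IgG (0.84 ± 0.15, adjusted p = 5.2e-06). Cbfa2t3 again overlapped IgG, with 132, 126 and 112 CPM in pull-down and 93.6, 136, 149 and 95.9 CPM with IgG (0.04 ± 0.16, adjusted p = 0.835). Mef2c pull-down lay at 112, 120.1 and 71.5 CPM and IgG at 129, 197, 297 and 198 CPM (-1.03 ± 0.21, adjusted p = 0.000125), a call lost with only the compared groups in the fit, at -0.59 (adjusted p = 0.0705). Cbfa2t3 was called higher in that same fit, at 0.48 (adjusted p = 0.0153).

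Sorted cells exceeded pull-down for most members. After the digest, 7 of 9 genes were higher than in pull-down and none lower, at a background of 31.6% called higher. Runx1 measured 76.6, 75.3 and 65.7 CPM in pull-down and 287, 262, 235 and 236 CPM after sorting (1.81 ± 0.16, adjusted p = 2.75e-13). Mef2a rose to 330.1, 399.9, 317 and 291 CPM (1.60 ± 0.14, adjusted p = 6.67e-13), and Mef2c to 249, 323, 277 and 269.8 CPM (1.47 ± 0.21, adjusted p = 1.24e-06). Both MEF2 factors were higher in every sorted library than in any pull-down or IgG library of the table, apart from Mef2c with IgG at 129 to 297 CPM. Pou2f2 measured 369, 327 and 243 CPM in pull-down and 906, 898, 784 and 819.9 CPM sorted (1.45 ± 0.14, adjusted p = 5.53e-12). Sall1 measured 150.1, 173 and 153 CPM in pull-down and 440.5, 387, 509 and 349.9 CPM sorted (1.41 ± 0.15, adjusted p = 5.35e-11). The groups did not overlap for either.

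Cbfa2t3 and Irf8 differed less, at 0.79 ± 0.15 (adjusted p = 2.24e-05) and 0.43 ± 0.12 (adjusted p = 0.00191). Spi1 measured 371, 365 and 334 CPM in pull-down and 467, 488, 343 and 356 CPM sorted, and Irf5 362, 337 and 324 CPM and 320.4, 361, 503 and 445 CPM. Both overlapped and were not called, at 0.21 ± 0.14 (adjusted p = 0.152) and 0.26 ± 0.14 (adjusted p = 0.0896), though both were called under total-count scaling, at 0.39 (adjusted p = 0.01) and 0.43 (adjusted p = 0.00476). Thus Runx1 and Sall1 stood 3.52-fold and 2.66-fold above pull-down, and Spi1 1.16-fold.

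Cells sorted without the digest, compared with the same pull-down libraries, gave 8 of 9 genes higher at a background of 31.9% called higher. The log2 differences were 1.75 ± 0.16 for Runx1, 1.49 ± 0.14 for Pou2f2, 1.48 ± 0.21 for Mef2c, 1.45 ± 0.14 for Mef2a, 1.41 ± 0.15 for Sall1, 0.74 ± 0.15 for Cbfa2t3 and 0.48 ± 0.12 for Irf8. Spi1 was just past the threshold, at 0.30 ± 0.14 (adjusted p = 0.0441), and its call was lost without any 1 of 6 libraries and with RLE size factors.

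With against without digest, edgeR called 0 of 9 members, DESeq2 also 0, and no member had an unadjusted p under 0.05. Of all genes, 0.139% were called. The log2 differences, digest over no digest, lay between -0.09 ± 0.13 for Spi1 and 0.15 ± 0.12 for Mef2a. Sall1, for example, measured 440.5, 387, 509 and 349.9 CPM with digest and 472, 421, 419.9 and 374 CPM without, and Mef2c 249, 323, 277 and 269.8 and 276, 255, 321 and 275 CPM. These ranges overlapped, as they did for all 9 members, while 3.56% of all genes did not overlap, and Sall1 differed by -0.00 ± 0.13 and Mef2c by -0.01 ± 0.18. In each sorted group 1 library carried more neutrophil and monocyte marker RNA, 170 CPM with digest replicate 1 and 230.4 CPM without digest replicate 4, against 2.86 to 15.3 CPM in the other 6.

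**Figure D2:**
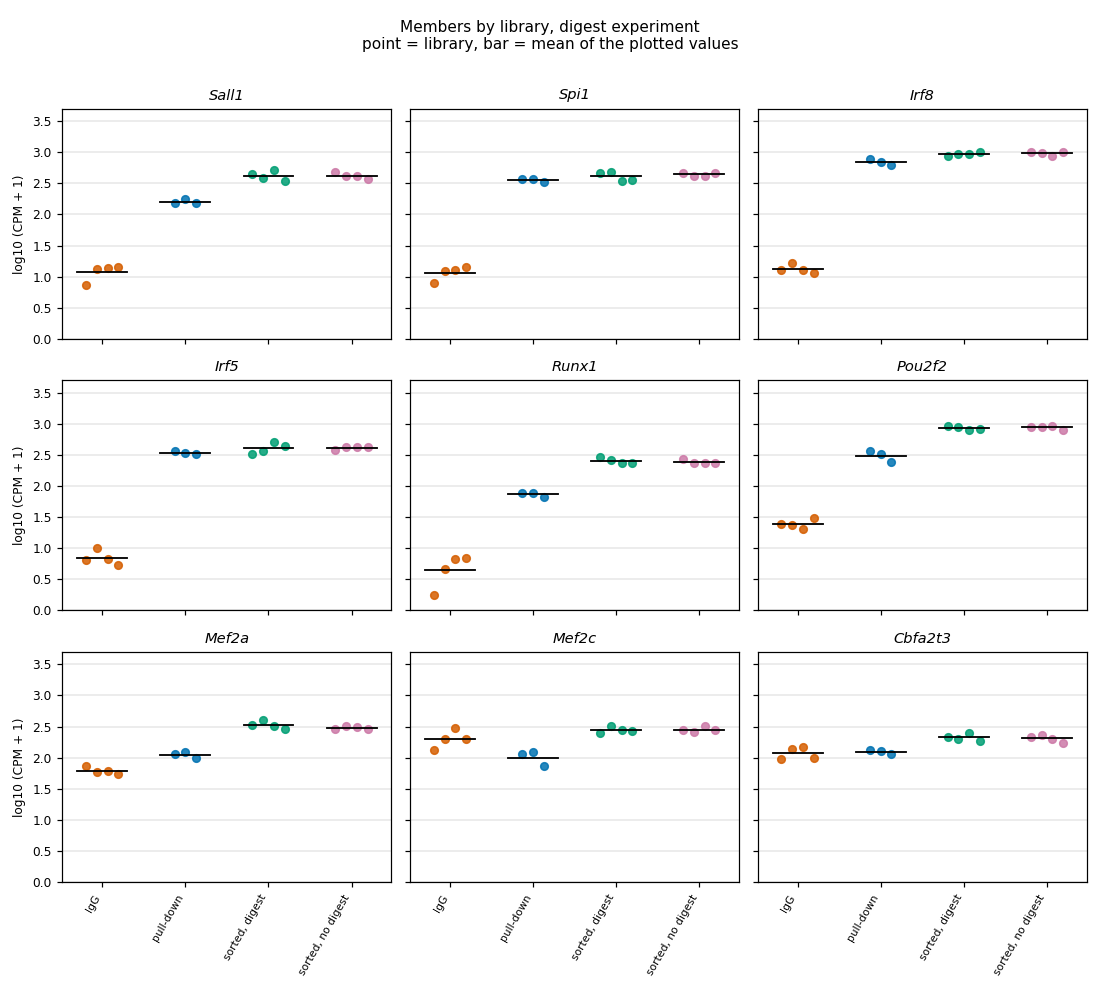
Each panel plots log10 (CPM + 1) of 1 gene in every library of the digest experiment by preparation, with a black bar at the mean of the plotted values. The 4 libraries sorted with digest and the 4 without overlap for each gene, and stand above pull-down most clearly for Sall1, Runx1, Pou2f2, Mef2a and Mef2c.

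In the LPS experiment the same contrast was made in PBS mice. Sorted cells were higher than pull-down for 6 of 9 genes, at a background of 33.2% called higher. Mef2a showed the widest gap, with 109, 102 and 102 CPM in pull-down and 642, 646 and 697 CPM sorted (2.66 ± 0.19, adjusted p = 1.78e-19). Runx1 followed at 1.97 ± 0.20, Sall1 at 1.91 ± 0.18, Mef2c at 1.75 ± 0.18 and Pou2f2 at 1.35 ± 0.21. Irf8, at 0.40 ± 0.16 (adjusted p = 0.0186), changed sign without the filter on low counts, at -0.09 (adjusted p = 0.746). Spi1, Irf5 and Cbfa2t3 overlapped between sorted cells and pull-down and were not called, at 0.10 ± 0.19, 0.23 ± 0.17 and 0.19 ± 0.19.

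Pulling tagged ribosomes out of the sorted cells set both steps together. Against whole-brain pull-down from PBS mice, 8 of 9 genes were higher in sorted pull-down (24.7% of genes), all but Cbfa2t3 at 0.25 ± 0.20 (adjusted p = 0.301). Against the sorted cells themselves, Mef2a was lower, with 225, 218 and 304 CPM in sorted pull-down and 642, 646 and 697 CPM sorted (-1.39 ± 0.19, adjusted p = 3.72e-08). In PBS mice 2 genes were lower in that comparison and 2 higher, at backgrounds of 15.2% lower and 16.6% higher. Sall1 at -0.46 ± 0.18 (adjusted p = 0.0437) was the other one lower, Spi1 at 0.75 ± 0.20 (adjusted p = 0.00258) and Irf5 at 0.44 ± 0.18 (adjusted p = 0.0486) were higher, and leaving out single libraries took the count of 4 down to 2. With the mouse as a replicate block, Runx1 was lower too, at -0.50 (adjusted p = 0.0337), beside -0.49 ± 0.20 (adjusted p = 0.0534) without it. The Sall1 call was lost without any 1 of the 6 libraries compared. After LPS, 4 were lower and 1 higher, at backgrounds of 16.7% and 15.2%. Mef2a was again lower, at -1.23 ± 0.18 (adjusted p = 2.67e-07), as were Sall1 at -0.72 ± 0.23, Mef2c at -0.66 ± 0.20 and Runx1 at -0.61 ± 0.16, with Irf5 higher at 0.68 ± 0.16.

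Border macrophage markers, and markers of neurons and oligodendrocytes, moved with the change from pull-down to sorted cells. Border macrophage markers (8 of 8 with reads) summed to 921 to 1013 CPM in pull-down of the digest experiment and 4.34 to 18.2 CPM after sorting with digest (7 of 8, F13a1 at 0). In PBS mice the sums were 731 to 895 CPM in pull-down and 13.8 to 22.4 CPM sorted (5 of 8, with Cd163, Lyve1 and Ms4a7 at 0). Neuron markers summed to 1391 to 1593 CPM in PBS pull-down (8 of 8) and 59.6 to 116 CPM sorted (8 of 8), and oligodendrocyte markers to 2239 to 2651 CPM (6 of 6) and 150.3 to 268 CPM (5 of 6, Mobp at 0). In sorted pull-down neuron markers (8 of 8) summed to 252 to 474 CPM with PBS and 165 to 806 CPM with LPS. LPS sorted cells held 61.8 to 156 CPM of neuron markers (8 of 8). Oligodendrocyte markers in sorted pull-down (6 of 6) summed to 399.7 to 661 CPM with PBS and 284 to 911 CPM with LPS. Border macrophage markers in sorted pull-down, at 15.2 to 29.6 CPM with PBS (8 of 8), overlapped those of PBS sorted cells. With LPS they summed to 10.3 to 24.6 CPM in sorted pull-down (7 of 8, Folr2 at 0). LPS sorted cells held 1.95 to 9.998 CPM (6 of 8, Cd163 and Lyve1 at 0), without overlap. Sorted pull-down had no IgG control of its own. The part of these cell types in the differences between preparations was not tested.

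**Figure D3:**
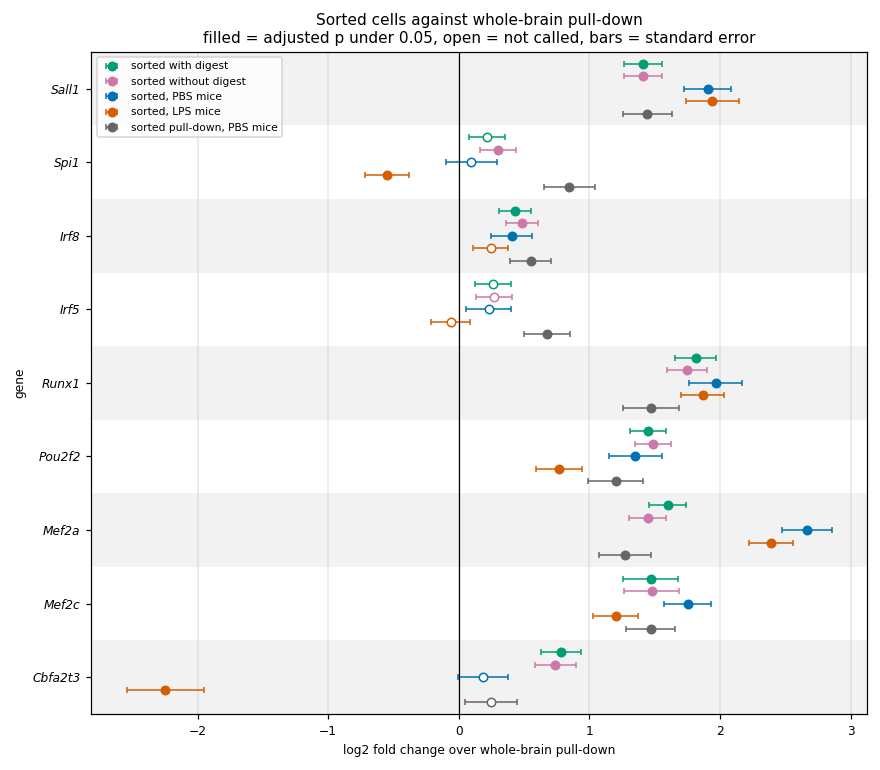
The x axis gives the log2 fold change of sorted cells or sorted pull-down over whole-brain pull-down for each gene, with bars of 1 standard error, filled points called at an adjusted p under 0.05 and open points not called. Sall1, Runx1, Mef2a, Mef2c and Pou2f2 lie to the right in every contrast, Spi1 and Irf5 nearer 0 than these, and Cbfa2t3 at -2.25 in LPS mice alone.

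LPS set the 9 genes apart into those that rose, those that fell and those with no call. In whole-brain pull-down 3 rose and 4 fell, where 15.5% of genes were called higher and 11.0% lower (58.6% of calls higher, against 45.0% with RLE size factors and 40.6% with total counts). In sorted cells 2 rose and 4 fell (17% higher, 17.6% lower), and in sorted pull-down 1 rose and 4 fell (12.7% and 12.9%). Runx1 rose and Sall1, Cbfa2t3, Mef2c and Mef2a fell in each of these preparations, while Irf8 and Irf5 were called in none. In IgG libraries 1 of 9 rose, Runx1, where 1.00% of genes were called higher.

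Runx1 measured 84.7, 88.0 and 107 CPM in PBS pull-down and 663, 713, 661 and 624 CPM after LPS (2.84 ± 0.20, adjusted p = 2.15e-19). In sorted cells it measured 364, 302 and 427 CPM with PBS and 2025, 2826, 2542 and 2318 CPM after LPS (2.74 ± 0.19, adjusted p = 2.23e-19). In sorted pull-down the values were 217, 285 and 278 CPM and 1914, 1651, 1274 and 1478 CPM (2.62 ± 0.20, adjusted p = 2.08e-17). No PBS library reached any LPS library of the same preparation, and the rise was 7.14-fold, 6.66-fold and 6.13-fold in turn. In order, the group levels ran from LPS sorted through LPS sorted pull-down, LPS pull-down, PBS sorted, PBS sorted pull-down and PBS pull-down to IgG, and of these neighbours only the IgG groups overlapped each other. IgG libraries measured 6.08, 7.36 and 10.1 CPM with PBS and 24.1, 30.5, 31.4 and 9.61 CPM after LPS (1.55 ± 0.33, adjusted p = 0.00294), a call that was lost with only the compared groups in the fit and without PBS replicate 1. The rise in pull-down exceeded that in IgG by 1.28 ± 0.42 (adjusted p = 0.0397), a call that 9 of 20 alternatives lost, and did not differ by call from the rise in sorted cells (-0.10 ± 0.25, adjusted p = 0.922).

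Sall1 fell. Pull-down measured 131, 129 and 104 CPM with PBS and 23.1, 22.4, 25.1 and 17.3 CPM after LPS (-2.43 ± 0.20, adjusted p = 1.6e-16). Sorted cells measured 451, 443 and 472 CPM and 95.8, 81.6, 93.6 and 74.8 CPM (-2.40 ± 0.18, adjusted p = 5.8e-18). Sorted pull-down measured 379, 311 and 300.2 CPM and 46.4, 30.9, 55.4 and 66.2 CPM (-2.66 ± 0.22, adjusted p = 1.32e-15). The LPS libraries lay below all PBS libraries in each case, and the level order was PBS sorted, PBS sorted pull-down, PBS pull-down, LPS sorted, LPS sorted pull-down and LPS pull-down, with no overlap between neighbours until IgG. IgG libraries measured 7.43, 11.6 and 21.7 and 10.6, 8.02, 16.4 and 5.91 CPM and overlapped (-0.49 ± 0.33, adjusted p = 0.604). The fall in pull-down was larger than the change in IgG, with a term of -1.95 ± 0.39 (adjusted p = 0.000304), and the term for sorted cells less pull-down was 0.04 ± 0.24 (adjusted p = 0.989).

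Cbfa2t3 fell furthest on the log scale in sorted cells and in sorted pull-down, while in whole-brain pull-down the fall of Sall1 was larger. Sorted cells measured 303, 239 and 135 CPM with PBS and 13.7, 13.3, 6.31 and 8.32 CPM after LPS (-4.53 ± 0.27, adjusted p = 9.25e-22). Sorted pull-down measured 279.6, 237 and 197 CPM and 16.7, 5.14, 24.6 and 7.16 CPM (-4.24 ± 0.32, adjusted p = 2.06e-17). Whole-brain pull-down measured 221, 209 and 169.7 CPM and 40.5, 39.1, 62.5 and 46.5 CPM (-2.10 ± 0.19, adjusted p = 2.38e-14). All 3 contrasts were without overlap, and after LPS the 4 sorted libraries held 28 reads of Cbfa2t3 in all. Of the 9 genes, Cbfa2t3 alone differed in its response between sorted cells and pull-down by the test of that difference (-2.44 ± 0.36, adjusted p = 5.49e-06), where 2.41% of genes were called lower. Its IgG libraries overlapped between treatments, measuring 176, 195 and 153 CPM with PBS and 167, 187, 181 and 191 CPM after LPS (0.06 ± 0.18, adjusted p = 0.95). IgG overlapped pull-down in PBS mice (0.20 ± 0.19) and stood above every pull-down library after LPS, where pull-down over IgG was -1.96 ± 0.18 (adjusted p = 9.06e-15).

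Mef2c fell in pull-down from 164, 131 and 155 CPM to 57.7, 52.2, 73.3 and 90.8 CPM (-1.16 ± 0.18, adjusted p = 1.74e-07). In sorted cells Mef2c went from 512, 519 and 486 CPM to 151, 138, 152 and 172 CPM (-1.72 ± 0.17, adjusted p = 3.98e-13). In sorted pull-down it went from 393, 477 and 386 CPM to 115, 87.5, 61.5 and 102 CPM (-2.09 ± 0.20, adjusted p = 2.36e-13). The groups did not overlap in any of these, whereas the IgG libraries, at 290.3, 343 and 217 and 228, 236, 273 and 197 CPM, did (-0.28 ± 0.16, adjusted p = 0.515). Mef2a fell less, from 109, 102 and 102 CPM to 85.3, 62.7, 61.8 and 75.6 CPM in pull-down (-0.54 ± 0.18, adjusted p = 0.0217, lost without any 1 of 3 libraries) and from 642, 646 and 697 CPM to 411, 368, 384 and 349 CPM in sorted cells (-0.81 ± 0.17, adjusted p = 6.18e-05). Sorted pull-down of Mef2a measured 225, 218 and 304 and 213, 134, 209 and 100.2 CPM (-0.64 ± 0.20, adjusted p = 0.0126), and that call was lost without LPS replicate 4, at -0.41 (adjusted p = 0.172), and without PBS replicate 3.

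Spi1 rose in pull-down and sorted cells and was not called in sorted pull-down. Pull-down measured 454, 535 and 354 CPM with PBS and 744, 1211, 1132 and 1074 CPM after LPS (1.21 ± 0.18, adjusted p = 2.49e-07). Sorted cells measured 521, 519 and 394 CPM and 532, 699.8, 787 and 809 CPM (0.57 ± 0.18, adjusted p = 0.012), a call lost with DESeq2 and without LPS replicate 4 or PBS replicate 3. Sorted pull-down measured 979, 788 and 649 CPM and 538, 854, 831 and 963 CPM, which overlapped (-0.02 ± 0.19, adjusted p = 0.965). The tests of the difference did not call Spi1, at -0.65 ± 0.26 (adjusted p = 0.173) for sorted cells less pull-down and -0.59 ± 0.26 (adjusted p = 0.701) for sorted pull-down less sorted cells. Pou2f2 rose in pull-down, from 401, 389.6 and 293 CPM to 508, 602, 595 and 466 CPM (0.59 ± 0.19, adjusted p = 0.017), and that call was lost with RLE size factors, DESeq2 and total-count scaling. In sorted cells Pou2f2 measured 1035, 912 and 819 CPM and 542, 989.8, 1106 and 1047 CPM, with an overlap (0.00 ± 0.19, adjusted p = 1).

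Irf8 measured 637, 625 and 543 CPM in PBS pull-down and 537, 551, 583 and 537 CPM after LPS (-0.12 ± 0.15, adjusted p = 0.583). Sorted cells measured 842, 795 and 753 and 567, 682, 726 and 634 CPM without overlap, but the test missed the threshold (-0.29 ± 0.15, adjusted p = 0.129), which DESeq2 passed at -0.34 (adjusted p = 0.00515). Irf5 measured 253, 253 and 305 CPM and 277, 265, 224 and 281 CPM in pull-down, with an overlap (-0.05 ± 0.16, adjusted p = 0.875), and in sorted cells the log2 difference was -0.34 ± 0.17 (adjusted p = 0.108). In the edgeR fit with all groups of the experiment, the log2 differences of both interferon regulatory factors lay between -0.34 and -0.05 in pull-down, sorted cells and sorted pull-down, and none was called. Other settings called both lower in sorted cells. Irf8 stood at -0.32 (adjusted p = 0.0231) with only the compared groups and -0.40 (adjusted p = 0.0195) with total counts. Irf5 stood at -0.37 (adjusted p = 0.0253) and -0.44 (adjusted p = 0.0257) in the same settings, at -0.39 (adjusted p = 0.0392) with DESeq2 and at -0.47 (adjusted p = 0.0253) without LPS sorted replicate 1. In sorted pull-down DESeq2 called Irf8 lower, at -0.35 (adjusted p = 0.0111).

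**Figure D4:**
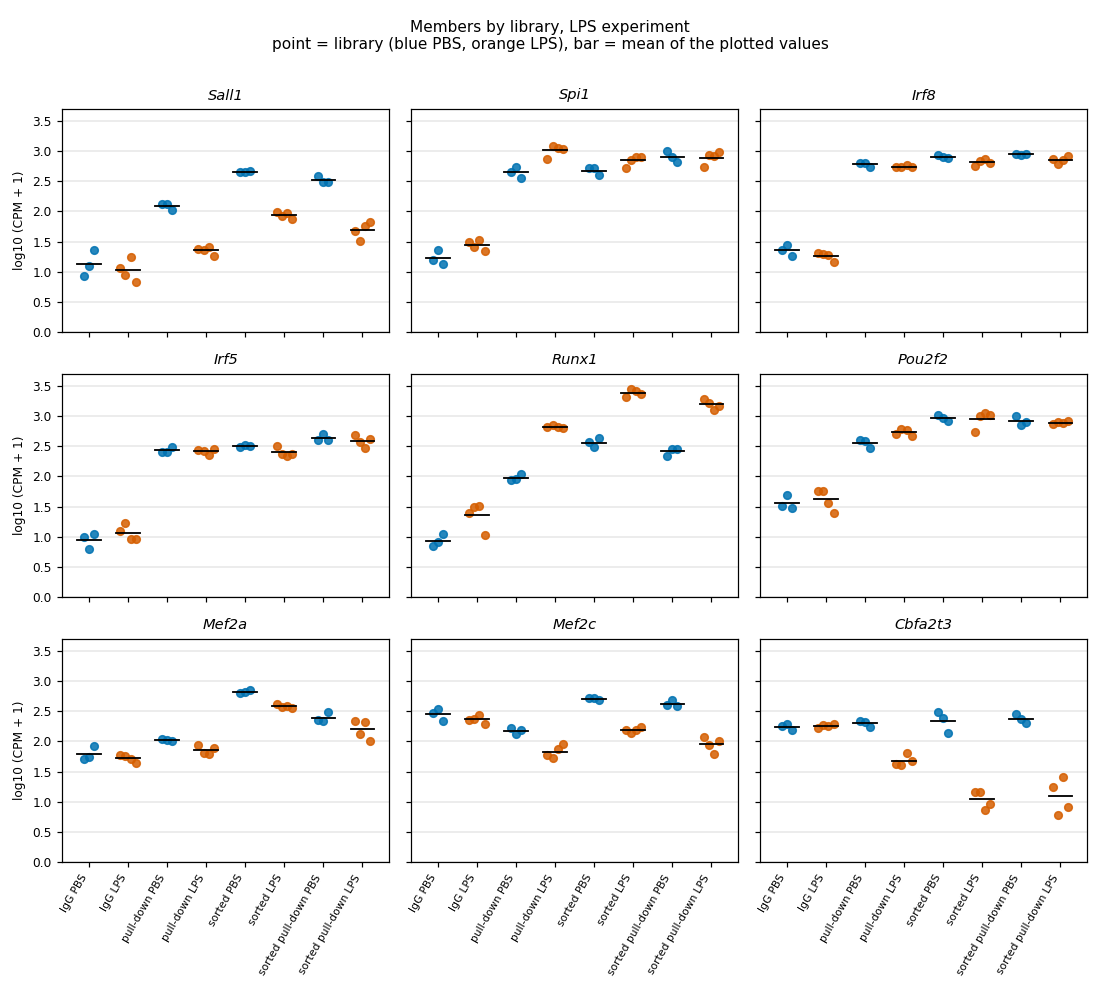
Each panel plots log10 (CPM + 1) of 1 gene in every library of the LPS experiment, blue for PBS and orange for LPS, by preparation, with a black bar at the mean of the plotted values. Runx1 is higher and Sall1, Cbfa2t3 and Mef2c are lower after LPS in pull-down, sorted cells and sorted pull-down. The IgG libraries of both treatments overlap for each of these genes, though Runx1 was called higher there.

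**Figure D5:**
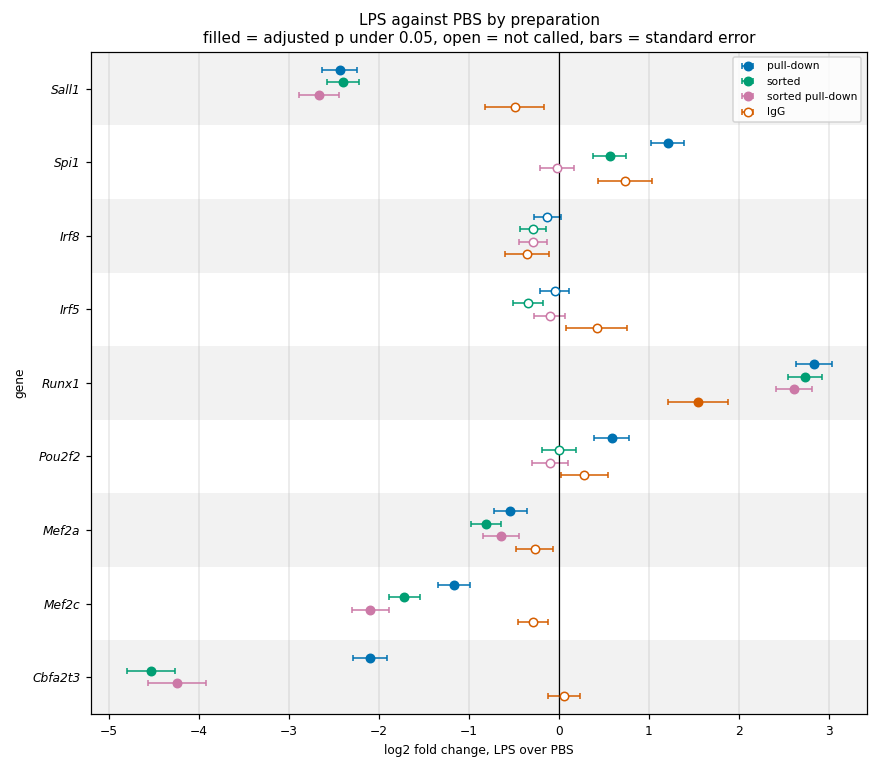
The x axis gives the log2 fold change of LPS over PBS for each gene in 4 preparations, with bars of 1 standard error, filled points called at an adjusted p under 0.05 and open points not called. Runx1 lies between 2.62 and 2.84 outside IgG, Sall1 between -2.66 and -2.40, and Cbfa2t3 at -2.10 in pull-down and below -4 in sorted cells and sorted pull-down.

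The pull-down remained above its IgG background after LPS for most members. In PBS mice 7 of 9 genes were higher than IgG and Mef2c lower (33.0% higher, 32.0% lower). After LPS 7 were higher and 2 lower, Mef2c and Cbfa2t3 (37.6% and 35.3%). For Sall1 the gap to IgG was 3.16 ± 0.24 (adjusted p = 3.85e-18) in PBS mice and 1.21 ± 0.27 (adjusted p = 5.93e-05) after LPS, and with RLE size factors the latter was 0.56 (adjusted p = 0.0589). Mef2a was called higher in both under TMM, at 0.74 ± 0.20 and 0.47 ± 0.19, but with RLE size factors its value was 0.22 (adjusted p = 0.332) in PBS mice and reversed to -0.19 (adjusted p = 0.343) after LPS. Those size factors moved the median of all genes in PBS pull-down over IgG from -0.02 to -0.53, and the share of calls that were higher from 50.8% to 32.2%. The test of the LPS response in pull-down less that in IgG called 3 of 9 genes lower, Cbfa2t3 at -2.15 ± 0.26, Sall1 at -1.95 ± 0.39 and Mef2c at -0.88 ± 0.24, and Runx1 higher (2.98% and 5.60% of genes).

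Sorted cells over pull-down within LPS mice gave 5 of 9 genes higher and 2 lower, at backgrounds of 33.1% and 43.0%. Mef2a stood at 2.39 ± 0.17, Sall1 at 1.94 ± 0.20 and Runx1 at 1.87 ± 0.16, beside 2.66 ± 0.19, 1.91 ± 0.18 and 1.97 ± 0.20 in PBS mice. Cbfa2t3 was lower in sorted cells after LPS (-2.25 ± 0.30, adjusted p = 8.22e-10), as was Spi1 (-0.55 ± 0.17, adjusted p = 0.00248). The Spi1 call was lost with total counts, at -0.28 (adjusted p = 0.11). That of Pou2f2 was lost without the filter on low counts, at 0.22 (adjusted p = 0.24). Irf5 was called lower without that filter, at -0.61. Irf8 was called higher with DESeq2, only the compared groups or total counts, and without LPS sorted replicate 1, at 0.26 to 0.51. Between sorted cells and sorted pull-down the LPS response was called for 0 of 9 members and 0% of all genes by edgeR, with 1 member and 761 of 11444 genes at an unadjusted p under 0.05, and DESeq2 called 0 members and 5 genes. Microglia markers summed to 33989.8 to 38289 CPM in PBS and 28686 to 38180.0 CPM in LPS pull-down, 39415 to 40696 and 29305 to 30107 CPM in sorted cells and 65663 to 71209.9 and 46269 to 57167 CPM in sorted pull-down, 10 of 10 with reads in each. Neutrophil and monocyte markers summed to 8.31 to 21.02 CPM in PBS and 7.13 to 13.3 CPM in LPS sorted cells (4 and 6 of 7 with reads, Retnlg at 0 in both), and to 3.28 to 12.99 and 6.21 to 12.2 CPM in pull-down (6 and 7 of 7). In sorted pull-down they summed to 17.6 to 111 and 30.8 to 68.0 CPM (6 and 7 of 7). Endothelial markers were lower after LPS in every library of pull-down, at 57.3 to 73.8 CPM with PBS and 30.3 to 49.7 CPM with LPS (5 of 6 with reads, Slco1a4 at 0 in both), and of IgG, at 79.7 to 106 and 36.2 to 46.4 CPM (6 of 6). In sorted cells they summed to 21.02 to 29.1 and 3.33 to 21.4 CPM (5 and 4 of 6). The part of these cell types in the LPS differences was not tested.

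A set of 3 lists of related genes, chosen with earlier results of these data known, gives the members' context. The first held 20 paralogs of the members, of which 11 or 12 were tested per experiment. In CreER pull-down over input 7 paralogs were higher and 2 lower, at backgrounds of 28.7% higher and 35.5% lower, with a median of 1.80 against -0.28 over all genes. Among those higher were Irf1, a factor induced by interferon gamma, at 4.40 ± 0.33, Sall3 at 3.22 ± 0.31, and Irf9, a part of the complex that carries interferon signals to the nucleus, at 2.44 ± 0.25. Runx1t1, of the same family as Cbfa2t3, was lower in pull-down than with IgG (-4.31 ± 0.58). After LPS, 5 of 11 paralogs rose and 2 fell in pull-down, where 15.5% of genes rose and 11.0% fell. The median was 0.25 against -0.03 over all genes. Among sorted cells 4 rose and 2 fell, where 17% of genes rose and 17.6% fell. The median there was of the other sign, at -0.09 against -0.01 over all genes. Sorted pull-down had 4 higher and 1 lower, where 12.7% of genes rose and 12.9% fell. Its median was -0.12 against -0.07 over all genes. Irf7, a master factor of type I interferon production, rose by 1.66 ± 0.18 in pull-down and 1.36 ± 0.22 in sorted cells, and Irf9 by 0.97 ± 0.20 and 1.14 ± 0.21.

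The second list held 32 other myeloid and microglial factors, of which 26 or 28 were tested. CreER pull-down over input called 19 of 26 higher and 2 lower, at backgrounds of 28.7% higher and 35.5% lower. The median was 2.49 against -0.28 over all genes. Cebpa, a myeloid lineage factor, stood at 5.51 ± 0.28, and Lyl1, a basic helix-loop-helix factor of blood cells, at 6.90 ± 0.40. Sorting with digest over pull-down called 21 of 28 higher and 3 lower, at backgrounds of 31.6% and 41.1%, with a median of 0.85 against -0.18 over all genes. Maf stood at 2.57 ± 0.18 and Cbfb, the partner subunit of RUNX factors, at 2.15 ± 0.21. After LPS 5 of 28 rose and 8 fell in pull-down, where 15.5% of genes rose and 11.0% fell. The median was -0.17 against -0.03 over all genes. Among sorted cells 6 rose and 12 fell, where 17% of genes rose and 17.6% fell. The median there was -0.25 against -0.01 over all genes. Cebpb, a factor of the acute inflammatory response, rose by 3.44 ± 0.19 in pull-down and 2.90 ± 0.20 in sorted cells, and Batf by 3.01 ± 0.20 and 2.42 ± 0.25. Maf fell, at -1.96 ± 0.25 and -1.87 ± 0.18, and so did Hhex, at -2.91 ± 0.25 and -2.22 ± 0.24. In the difference of the LPS response between sorted cells and pull-down, 2 of 28 were called lower (2.41% of genes). They were Batf3 and Tal1, the latter at -1.32 ± 0.34 (adjusted p = 0.0186). The protein of Tal1 works in complexes that can hold Cbfa2t3, and a link between these genes was not tested.

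The third list held 10 genes known as dependent on members in macrophages or microglia, of which 9 were tested, several being microglia markers as well. In CreER pull-down over input 9 of 9 were higher (28.7% of genes), with a median of 5.97, among them Csf1r, the receptor of colony stimulating factor 1 and a PU.1 target, at 7.18 ± 0.32. Sorting with digest over pull-down gave 4 higher and 3 lower, at backgrounds of 31.6% higher and 41.1% lower, with P2ry12, the purinergic receptor of resting microglia, at 4.17 ± 0.16 and Aif1 at -0.77 ± 0.11. After LPS 2 of 9 rose and 5 fell in pull-down, where 15.5% of genes rose and 11.0% fell. The median was -0.41 against -0.03 over all genes. P2ry12 fell, at -2.03 ± 0.19 in pull-down and -1.86 ± 0.18 in sorted cells, as did Cx3cr1, at -1.79 ± 0.16 and -1.46 ± 0.15, while the Fc receptor gene Fcgr3 rose by 1.23 ± 0.16 and 1.31 ± 0.16. The Cx3cr1 locus also drives the Cre in every mouse of the study.

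Across the 21 groups, with log2 CPM averaged per group and centred within each experiment, the levels of Irf8 and Irf5 followed each other (Pearson r = 0.984), as did Irf8 and Spi1 (0.972) and Irf8 and Pou2f2 (0.969). Mef2c and Cbfa2t3 stood apart from Irf8 (-0.081 and -0.017) and were nearer to each other (0.617), and Sall1 and Mef2a had r = 0.831. These values describe groups that share mice, libraries' scaling and the split between pull-down and background, and carry no test. Searching 10534 genes for the most similar pattern gave Nckap1l (r = 0.996) for Irf8, Cd68 (0.994) for Irf5, Ctsz (0.990) for Spi1 and Ctc1 (0.984) for Sall1. It gave Csf2rb2 (0.983) for Runx1 and Slc38a9 (0.971) for Mef2a. The closest genes were less close for Mef2c, with Tnrc6b (0.941), and Cbfa2t3, with Tln2 (0.908).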

How the data were processed

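Per the labels, RNA came from brain homogenate pulled down with anti-HA or isotype IgG, from total extract, or from sorted cells. The authors deposited raw read counts per gene over exons, as 3 tables. The submitters' processing notes name bcl2fastq, HISAT version 0.1.5, HOMER and build mm9; strand and annotation settings are not given in the sources used here. The design text says that replicates were separate mice and that sorting and pull-down were from the same animal. In the LPS experiment the titles carry 1 number per mouse, 1 to 7, across its 4 preparations, so these numbers pair the libraries within a treatment. There, same-numbered libraries deviated together (r over 0.1) in 13 of 42 pairs, against 4 of 48 pairs of equal replicate number between treatments, and pull-down with sorted cells in 4 of 7 (positive in 7 of 7). The block is an alternative.

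Counts were analysed with edgeR 4.0.16 in R 4.3.3, per experiment, with 1 coefficient per group: filterByExpr (minimum count 10), TMM scaling, robust quasi-likelihood F tests, Benjamini-Hochberg adjustment over all genes tested and a threshold of 0.05. CPM uses the same scaling. The procedure was tested on simulated data. Alternatives were RLE size factors, total counts, no filter on low counts, DESeq2 1.42.0, only the compared groups, a replicate block, and each library left out. No libraries of a group agreed within sampling noise (lowest chi-square per degree of freedom 1.50). The named genes are the 9 members, up to 6 called genes with the smallest p from each list and comparison, and the genes most like each member in pattern, of which that for Pou2f2 is not reported here. Members, lists and comparisons were chosen with earlier results of these data known. Each gene was matched by symbol, and reads shared with overlapping or antisense genes cannot be told apart without strand. Counts without molecular identifiers are not independent molecules.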

Additional observations from a re-analysis of the deposited data

Results flagged for a closer look

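In 3 of 63 sets of 4 libraries, a library lay far from the other three, and chance gives about 1 in 20. Sall1 measured 6.24 CPM in IgG replicate 1 of the digest experiment against 12.5 to 13.3 CPM in the others. Irf5 measured 383.7 CPM in replicate 1 of the cells sorted without digest against 418.3 to 419.8 CPM, and Runx1 275.4 CPM in that same library against 232.7 to 233.8 CPM.

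Differences between drivers in pull-down over input, constitutive less CreER with tamoxifen, were called by edgeR for 8 genes, as log2 values of -6.66 for Runx1, -4.83 for Pou2f2, -4.56 for Spi1, -4.49 for Sall1, -4.44 for Irf8, -4.44 for Irf5, -1.42 for Cbfa2t3 and -1.30 for Mef2a. The LPS response of Cbfa2t3 differed between sorted cells and pull-down by -2.44. Between pull-down and IgG the LPS response differed by -2.15 for Cbfa2t3, -1.95 for Sall1, -0.88 for Mef2c and 1.28 for Runx1.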

How the results depend on the processing

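Over 261 values (9 genes in 29 comparisons) and 3480 alternatives, 3333 kept their side of the threshold and, where called, their direction, 91 lost the call, 52 gained one in the same direction and 4 called values changed sign. Among the 3333 are 107 in which a value not called changed sign. Of 156 called values, 126 kept direction and call under every alternative that could be fitted. The 4 changes of sign among called values were Mef2a in LPS pull-down over IgG, at -0.19 with DESeq2, -0.19 with RLE size factors and -0.093 with total counts, and Irf8 in PBS sorted cells over pull-down, at -0.088 without the filter on low counts. With only the compared groups, the count of members called fell to 3 for CreER IgG over input and to 0 for LPS in IgG libraries. With total counts it rose to 6 for constitutive pull-down over input, 3 higher and 3 lower (Sall1 -0.91, Mef2a -0.96, Mef2c -0.69). Leaving out 1 library moved the counts from 3 to 4 for CreER IgG over input (5 with all), 4 to 7 and 2 to 5 for pull-down without tamoxifen over input and IgG, 0 to 1 for LPS in IgG libraries, 2 to 3 for PBS sorted pull-down over sorted cells (4 with all) and 2 to 4 for the LPS response in pull-down less IgG. The cause was not tested. Where a gene failed the count filter among the compared groups alone, no value was given. Over all genes, calls without against with digest numbered 16 with edgeR and 25 with DESeq2, those for LPS in IgG libraries 132 and 84 with only the compared groups, and those for the LPS response in sorted cells less pull-down 367 and 552. Total counts moved the median of all genes in CreER pull-down over input from -0.28 to -0.75 and the share of higher calls from 44.7% to 28.8%. They also moved the share of higher calls from 46.6% to 30.4% for CreER pull-down over IgG, from 51.8% to 28.1% and 52.9% to 31.1% for constitutive pull-down over input and IgG, from 47.2% to 70.3% for pull-down without against with tamoxifen, from 52.3% to 31.5% and 47.8% to 32.2% for sorted pull-down over sorted cells in PBS and LPS mice, and RLE size factors from 51.6% to 31.9% for LPS pull-down over IgG and from 65.3% to 45.7% for the LPS response in pull-down less IgG.

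With the replicate number as a replicate block, 4 of the 261 calls changed: Mef2a in CreER pull-down was called over input (0.70, adjusted p = 0.0488) and IgG (0.73, adjusted p = 0.0403), Runx1 was called in PBS sorted pull-down over sorted cells (-0.50, adjusted p = 0.0337), and Spi1 in CreER IgG over input was lost (1.17, adjusted p = 0.057). Only Runx1 among these is of the LPS experiment, where the number marks the mouse within a treatment. The block for LPS against PBS joins different mice of equal replicate number. In the other experiments same-numbered libraries of 1 kind of mouse deviated together (r over 0.1) in 6 of 24 pairs of the driver and 2 of 21 of the digest experiment, and share only a number. Groups of 2 to 4 libraries and as few as 166851 counts limit what low genes such as Runx1 in input can show.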
